A study of Mus musculus with 6 samples.

Results

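The machinery that copies DNA and drives cell division was followed through 44 named genes: the 6 subunits of the MCM2-7 helicase, 10 factors of origin licensing and firing, 5 genes of the polymerases, the sliding clamp and nucleotide supply, 10 cyclins, kinases and a phosphatase of G1 and S phase, 3 genes of the G1 brakes and E2F, and 10 genes of G2 and mitosis. They were chosen by gene symbol from the 48440 genes of a deposited count table, and 43 of them had reads and entered the test. The missing member, Cdt1, which loads the helicase at origins, had 0 reads in all 6 libraries. It lies on chromosome 8 (122568015 to 122573128, GRCm38) wholly inside the longer gene model Gm20388 on the same strand, and the counting left out reads that overlap both models, so its level was not measured.

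Each sample was a clone of mouse iPSCs, which are fibroblasts of mouse embryos reprogrammed to a pluripotent state: 3 clones are labelled as Cas9 knockouts of Tet1, an enzyme that oxidises 5-methylcytosine, and 3 as non-targeted (NT). The knockout clones have the genotype label wt/wt;GFP/wt with Tet1 Cas9 mut/mut, and the NT clones wt/wt;GFP/wt. All 6 are male, descend from 1 parental line (iPSC34.3) and have a strain label that names Tet1tm1Kohx on B6 together with the transgene B6;CBA-Tg(Pou5f1-EGFP)2Mnn/J. That line was grown for 14 passages in KSR medium, given Cas9 protein with a Tet1 guide RNA and a donor oligonucleotide, exposed for 12 h to an enhancer of homology-directed repair, and then picked as colonies. The clones were kept for 4 more passages, expanded on embryonic fibroblast feeders and taken off them before RNA was extracted. The labels carry this text for both groups and do not say how the NT clones were treated otherwise. Each library is 1 clone, and the p-values rest on how clones of this single line vary.

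Before a cell can replicate its DNA it loads MCM2-7 rings onto origins in G1, with the origin recognition complex, Cdc6 and Cdt1 as loaders, and then activates them with Cdc45 and GINS. Cyclin-dependent kinases time these steps: D cyclins with Cdk4 or Cdk6 act in G1, cyclin E and A with Cdk2 act at S phase entry, and B cyclins with Cdk1 drive mitosis. E2F factors switch on many replication genes and are held back by the retinoblastoma protein, whereas many mitotic genes carry a different promoter element, the cell cycle genes homology region (CHR). Mouse pluripotent stem cells are known for a short G1 phase and for cyclin E and Cdk2 activity through most of the cycle.

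Library totals ran between 11937909 and 16189554 reads counted to genes, and levels are given as CPM, a gene's reads relative to all reads counted in its library, scaled with TMM factors. Tet1 itself, the targeted gene, stood at 365, 231 and 288 CPM across knockout replicates 1, 2 and 3, against 1158, 966 and 1034 CPM across the NT replicates, so every knockout library was below every NT library. The log2 fold change of Tet1 was -1.84 ± 0.16 (SE) with an edgeR adjusted p of 0.0703, and it was called in 11 of 18 alternative fits, DESeq2 and limma voom among them. The pluripotency factor Pou5f1 was at 684, 692 and 675 CPM in knockout clones and 744, 748 and 849 CPM in NT clones, and none of the 14 pluripotency markers was at 0. Knockout replicate 1 lay close to the NT clones. Its log2 CPM correlated across genes at 0.984 to 0.986 with the NT libraries, against 0.973 and 0.958 with knockout replicates 2 and 3. Such correlations are across genes of whole libraries and are descriptions only.

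Most of the genes stood slightly lower in the knockout clones, and none passed edgeR's quasi-likelihood test. The log2 fold change, knockout over NT, was below 0 for 35 of the 43 genes (81.4%), against 49.7% of all 14664 tested genes, and its median was -0.18, against 0.00 over all genes. Values ran between -1.01 for Cdkn1b, a brake on G1 kinases, and 0.64 for Cdk6, a G1 kinase. edgeR called 0 of the 43 at an adjusted p of 0.05, and it called 0% of all genes; at an unadjusted p under 0.05 it had 12 lower and 2 higher members, against 10.8% of all genes lower and 14% higher. DESeq2 called 3 members lower (Orc1, Ccne1 and Cdkn1b) and 0 higher, beside a background of 3.35% of genes lower and 5.77% higher. Each of those 3 calls was lost when any library other than knockout replicate 1 was left out, and DESeq2 then called 0 members; the background was 2.13% and 1.89% of genes without knockout replicates 2 and 3, and 1.57%, 5.52% and 0.979% without NT replicates 1, 2 and 3. limma voom called 0 members.

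The clones of the knockout group did not share this shift equally. Knockout replicate 1 had 15 members below the lowest NT value (34.9%, background 30.1%), replicate 2 had 31 (72.1%, background 36.4%) and replicate 3 had 33 (76.7%, background 39.6%). Above the highest NT value lay 9 members in knockout replicate 1 and 7 each in replicates 2 and 3, against backgrounds of 29.9%, 37.6% and 38.4%. The median log2 deviation of the 43 genes against the NT mean was -0.05, -0.18 and -0.28 in knockout replicates 1, 2 and 3, and 0.02, -0.06 and 0.07 in the NT replicates, each NT clone being set against the other NT clones. In 13 members all 3 knockout values lay below all 3 NT values (30.2%, background 14.7%), and in 2, Ccne2 and Rrm1, they lay above (4.65%, background 14.8%). The 13 were Mcm5, Mcm7, Orc1, Gins1, Gins4, Pole, Pola1, Pcna, Ccnd3, Ccne1, Cdk2, Cdkn1b and Cdc20. Only Cdc20 came from the 10 genes of G2 and mitosis (10%, background 14.7%). In 18 further members replicates 2 and 3 lay below the NT range and replicate 1 did not (41.9%, background 14.4%). The reverse, with replicates 2 and 3 above the NT range and replicate 1 not, held for 4 members (9.30%, background 14.4%). They were Ccnd1, Cdc25a, Cdc6 and Cdk6.

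**Figure D1:**
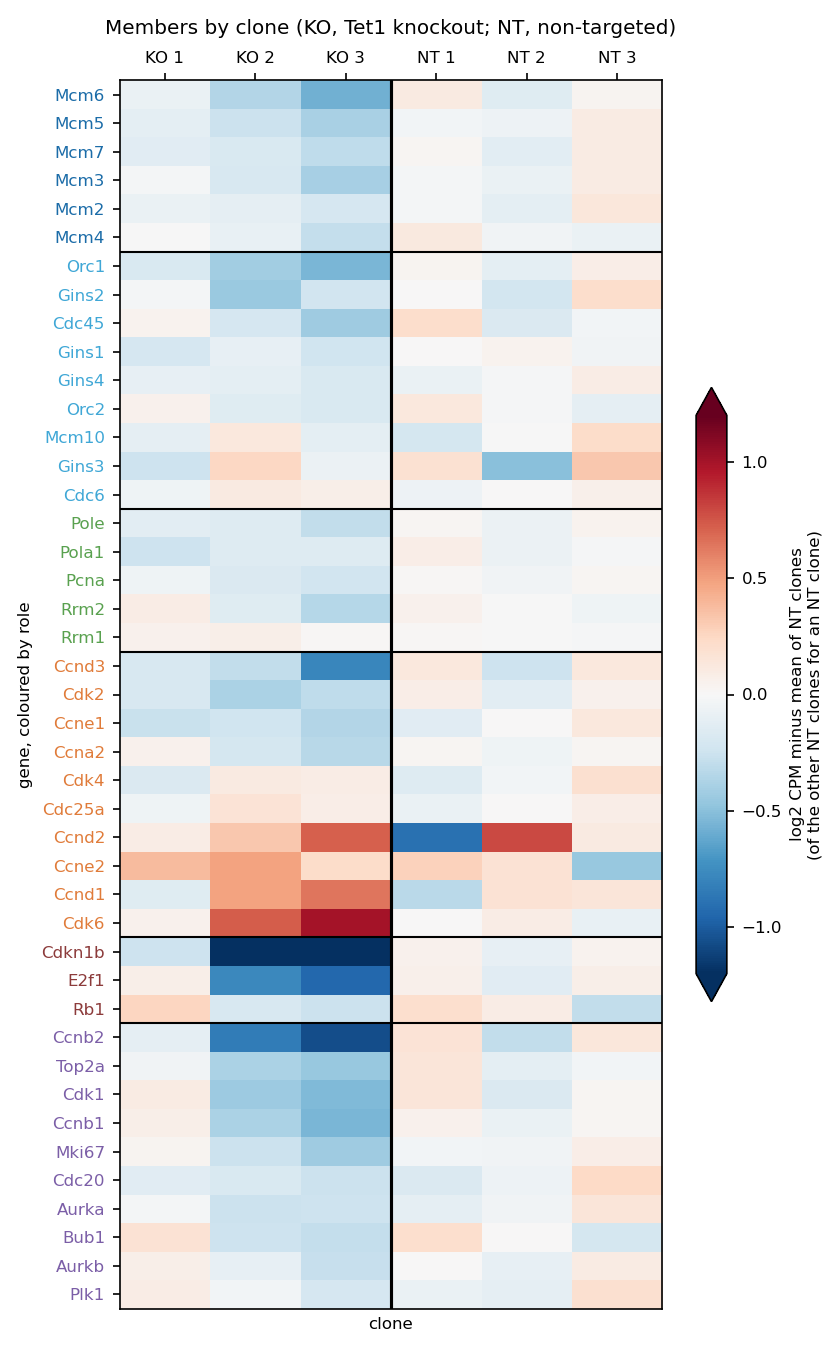
Log2 CPM of the 43 measured genes (rows, grouped and coloured by role) in each of the 6 clones (columns), as the difference from the mean of the NT clones, or of the other NT clones for an NT clone. Blue fills most rows of knockout replicates 2 and 3, whose median deviations are -0.18 and -0.28, and is paler in replicate 1, at -0.05.

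With knockout replicate 1 left out, edgeR called 22 of the 43 members, 20 lower and 2 higher (Cdk6 and Ccnd1), beside a background of 14% of genes lower and 15.1% higher, and DESeq2 called 24 (background 28.5%). With any other library left out edgeR called 0 members. The direction of the fold change was the same under all 18 alternatives (other tools, scalings and filters, and each library left out) for 38 of the 43 genes.

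Other measures of the libraries also differed between the clones. Summed over the 14 pluripotency markers, knockout replicates 1, 2 and 3 had 6110, 4912 and 4046 CPM and the NT replicates 6548, 5912 and 6485 CPM, and 13 of the 14 had a fold change below 0 (median -0.30). Nanog, a core pluripotency factor, had 471, 284 and 112 CPM in knockout clones and 564, 473 and 462 CPM in NT clones, and replicate 3 stood at 22.4% of the NT mean. Named after their values were seen, as the lowest in that clone after Nanog, Klf4, Tfcp2l1, Esrrb and Fgf4 were at 23.4%, 29.7%, 31.0% and 40.0% of the NT mean. In replicate 2 they were at 42.5%, 72.5%, 58.8% and 55.7%. Other markers fell less or not at all. In replicates 2 and 3 Lin28a was at 103% and 129% of the NT mean, Klf2 at 119% and 60.8%, and Utf1 at 83.1% and 94.2%. Replicates 2 and 3 each had 12 of the 14 markers below the NT range (85.7%, background 36.4% and 39.6%) and 1 above it. edgeR and DESeq2 called 0 of the 14, with 3 lower at an unadjusted p under 0.05, and edgeR called 10 of them lower with knockout replicate 1 left out, beside 14% of all genes. Of the 26 tested fibroblast markers, which the feeders would carry, 24 were above 0 with a median of 1.17, against 7371 of the 14664 tested genes and a median of 0.00, and DESeq2 called 12 of the 26 higher, against 5.77% of all genes. Their median deviations were 0.56, 0.75 and 1.81 in knockout replicates 1, 2 and 3 and -0.55, 0.37 and 0.19 in the NT replicates. None was at 0 in any library, and Twist2 had too few reads to be tested. Col1a1, a fibroblast collagen, had 39.4, 37.1 and 123 CPM in knockout clones and 18.8, 30.8 and 26.4 CPM in NT clones, and Col1a2, its partner chain, 29.98, 32.8 and 108 CPM in knockout clones and 13.7, 21.4 and 21.7 CPM in NT clones. Not every fibroblast marker rose. Fn1 was at 107%, 65.5% and 52.4% of the NT mean in knockout replicates 1, 2 and 3, and Sparc at 87.1%, 80.1% and 98.8%. With knockout replicate 1 left out, edgeR called 20 of the 26 higher and 1, Fn1, lower, beside 15.1% and 14% of all genes. Summed CPM over the fibroblast list ran between 2031 and 2584 in the knockout and between 2053 and 2422 in the NT clones. The part of either cell type in the results on cell cycle genes was not tested. In RNA from whole cultures, fewer dividing cells and less RNA per cell cannot be told apart.

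**Figure D2:**
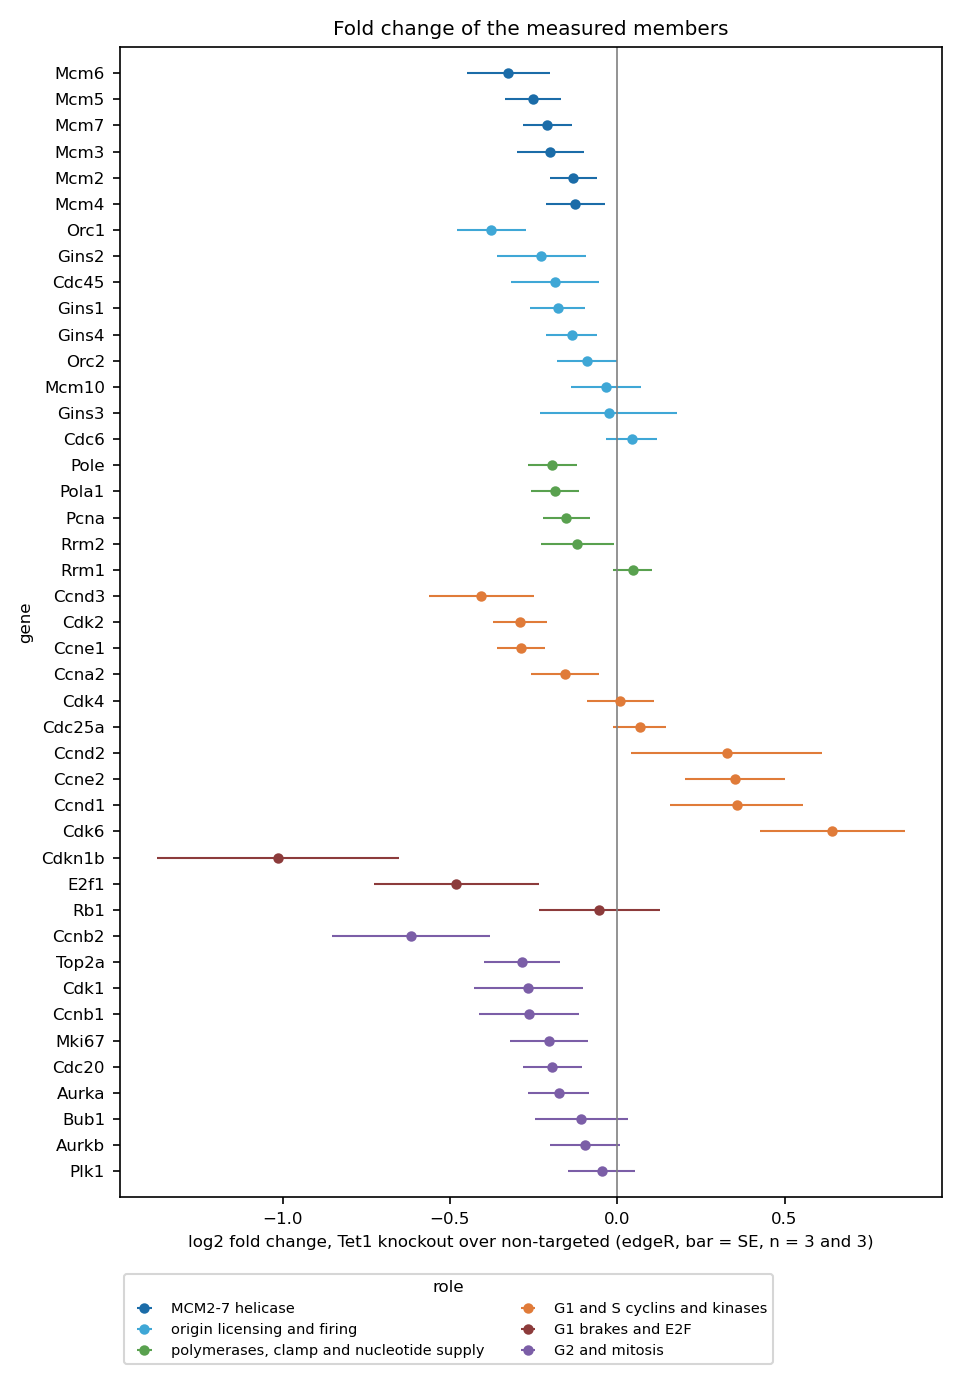
Log2 fold change (knockout over NT, edgeR, 3 clones each) of the 43 measured genes, ordered and coloured by role, with the standard error as a bar. All 6 MCM2-7 genes and all 10 G2 and mitosis genes lie below 0, while the G1 and S genes lie on both sides, between -0.41 for Ccnd3 and 0.64 for Cdk6.

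The helicase genes stood lower in the knockout clones as a group of 6, with fold changes between -0.33 and -0.12 and a median of -0.20. Mcm6 had 683, 567 and 484 CPM across knockout replicates 1, 2 and 3, against 762, 677 and 734 CPM across the NT replicates. Knockout replicate 1 lay within the NT range and replicates 2 and 3 lay below it (-0.33 ± 0.12, SE, edgeR adjusted p = 0.17). Mcm5 had 642, 582 and 529.8 CPM in knockout clones, against 684, 675 and 728 CPM in NT clones, with no overlap (-0.25 ± 0.08, SE, edgeR adjusted p = 0.144). Mcm7 had 501, 485 and 448 CPM in knockout clones and 558, 521 and 578 CPM in NT clones, again with no overlap (-0.21 ± 0.07, SE, edgeR adjusted p = 0.153). The other 3 subunits had smaller differences, and in each of them knockout replicate 1 lay within the NT range while replicates 2 and 3 lay below it. Mcm3 averaged 555 ± 70.99 CPM in knockout clones and 637 ± 27.7 CPM in NT clones (SD, n = 3 each). Mcm2 averaged 698 ± 31.1 CPM in knockout clones and 765 ± 45.8 CPM in NT clones, and Mcm4 524 ± 51.3 CPM in knockout clones and 571 ± 27.9 CPM in NT clones (SD, n = 3 each). Across the clones the helicase median followed the order of the whole set, at -0.08, -0.19 and -0.35 in knockout replicates 1, 2 and 3 and between -0.10 and 0.10 in the NT clones. With knockout replicate 1 left out, edgeR called 4 of the 6 lower (Mcm3, Mcm5, Mcm6 and Mcm7), beside 14% of all genes in that fit.

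Among the 9 measured genes of origin licensing and firing, 8 had a fold change below 0, with a median of -0.14. Orc1, the largest subunit of the origin recognition complex, stood lowest. It lies on chromosome 4 (108579423 to 108614833, GRCm38) and had 159.8, 136 and 124 CPM across knockout replicates 1, 2 and 3, against 184, 172 and 188 CPM across the NT replicates. The groups did not overlap, and knockout replicate 3 was farthest from the NT clones. The log2 fold change of Orc1 was -0.38 ± 0.10 (SE) with an edgeR adjusted p of 0.122, and DESeq2 called it at an adjusted p of 0.0456. The adjusted p ran between 7.85e-06 and 0.371 over the 18 alternatives. Orc1 was called in 3 of these: DESeq2, and edgeR and DESeq2 with knockout replicate 1 left out. Orc2, another subunit of that complex, had 167, 145 and 142 CPM in knockout clones and 170.4, 159.6 and 153 CPM in NT clones, where replicates 2 and 3 of the knockout lay below the NT range (-0.09 ± 0.09, SE). Among the GINS subunits, which clamp Cdc45 to the helicase, Gins1 had 50.8, 54.4 and 49.4 CPM in knockout clones and 58.5, 59.3 and 57.1 CPM in NT clones without overlap. Gins4 had 72.1, 71.2 and 67.9 CPM in knockout clones and 74.4, 76.9 and 80.7 CPM in NT clones, also without overlap. Gins2 had 56.1, 41.9 and 48.8 CPM in knockout clones and 57.3, 51.5 and 63.1 CPM in NT clones, with knockout replicate 1 inside the NT range. Gins3 had 12.7, 17.95 and 14.4 CPM in knockout clones and 16.4, 11.9 and 17.5 CPM in NT clones, fully overlapping, and the sign of its difference (-0.03 ± 0.20, SE) changed with library totals as the scaling and with which library was left out. Cdc45, the activator of the helicase, had 92.4, 78.2 and 66.7 CPM in knockout clones and 98.9, 82.7 and 88.3 CPM in NT clones, again with replicates 2 and 3 of the knockout below the NT range. Mcm10, an initiation factor outside the MCM2-7 ring, and the loader Cdc6 differed by -0.03 ± 0.10 and 0.04 ± 0.08 on the log2 scale (SE), less than the spread between clones. Cdc6 had 109, 123 and 119 CPM in knockout clones and 110, 114 and 117 CPM in NT clones. Its knockout replicate 1 lay below the NT range and replicates 2 and 3 lay above it.

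The promoters of the members were searched for E2F-type letters, because E2F factors are known to act on replication genes. The letters were TTTGGCGC, TTTCCCGC, TTTGCCGC and TTTCGCGC on either strand, in RefSeq windows (GRCm38.p6) that run 250 bases upstream of each annotated start and continue 50 bases past it. RefSeq windows were matched for 33 of the 44 genes, giving 36 windows. The 11 genes without one were Mcm4, Gins1, Gins2, Gins4, Pole, Ccnd1, Ccnd2, Ccne2, Ccna2, Rb1 and Aurkb. E2F-type letters occurred in 12 of the 36 windows (33.3%), against 2.26% of all 32851 windows in the table. They occurred in 4 of 6 MCM2-7 windows and 4 of 8 licensing and firing windows, Cdt1 among them. The upstream part is shown for Orc1, Mcm5 and Mcm6, the 3 replication genes with the lowest fold changes, at chr4:108579204-108579453 (plus strand), chr8:75109259-75109508 (plus strand) and chr1:128359706-128359955 (minus strand). Capitals mark the E2F-type letters on either strand, and the sequences are RefSeq's.
Orc1: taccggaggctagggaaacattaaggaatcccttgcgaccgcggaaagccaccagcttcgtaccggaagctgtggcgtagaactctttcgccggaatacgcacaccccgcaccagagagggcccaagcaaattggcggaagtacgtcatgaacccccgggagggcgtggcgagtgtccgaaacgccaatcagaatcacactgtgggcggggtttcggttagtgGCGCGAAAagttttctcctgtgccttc
Mcm5: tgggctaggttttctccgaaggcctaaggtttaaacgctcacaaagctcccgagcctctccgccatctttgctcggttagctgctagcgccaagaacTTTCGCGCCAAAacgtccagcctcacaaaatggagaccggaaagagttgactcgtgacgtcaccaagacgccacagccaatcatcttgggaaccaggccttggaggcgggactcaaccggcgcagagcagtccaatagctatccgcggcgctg
Mcm6: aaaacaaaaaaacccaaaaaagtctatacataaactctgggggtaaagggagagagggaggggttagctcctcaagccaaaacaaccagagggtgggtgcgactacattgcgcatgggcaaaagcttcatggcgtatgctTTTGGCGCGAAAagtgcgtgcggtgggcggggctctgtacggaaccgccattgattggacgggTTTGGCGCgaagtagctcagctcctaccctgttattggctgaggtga
In Orc1 the letters begin 27 bases upstream of the start. In Mcm5 a match on each strand overlaps within 1 run that begins 153 bases upstream, and Mcm6 has such an overlapping pair at 110 bases and a further match at 47 bases. The E2F-type letters also occurred in the windows of Cdc6 and Cdc25a, whose fold changes were 0.04 and 0.07. They were absent from those of Pcna and Cdc45, at -0.15 and -0.19. Whether the letters go with the fold changes was not tested. A match is a description of the sequence, not of a bound site.

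Of the 5 genes of the polymerases, clamp and nucleotide supply, 4 had a fold change below 0, and the median was -0.15. Pcna, the sliding clamp, had 302, 277 and 266 CPM across knockout replicates 1, 2 and 3, against 315, 307 and 317 CPM across the NT replicates, without overlap (-0.15 ± 0.07, SE, edgeR adjusted p = 0.23). Pole, the catalytic subunit of the leading-strand polymerase, had 212, 208 and 188 CPM in knockout clones and 234, 224 and 236 CPM in NT clones. Pola1, the catalytic subunit of the polymerase that works with primase, had 107, 115 and 115 CPM in knockout clones and 132, 123 and 126 CPM in NT clones. Neither Pole nor Pola1 had any overlap between groups, and in Pola1 the lowest clone was knockout replicate 1. Ribonucleotide reductase makes deoxyribonucleotides, and its subunits differed from each other. The large subunit Rrm1 had 346, 349.7 and 337 CPM in knockout clones and 336, 332 and 332 CPM in NT clones, a difference of 0.05 ± 0.06 on the log2 scale (SE), with every knockout value above every NT value. The small subunit Rrm2 had 516, 439 and 383 CPM in knockout clones and 496, 483 and 474 CPM in NT clones, so that knockout replicate 1 was above and replicates 2 and 3 were below the NT range.

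The G1 and S phase regulators went in both directions, with 4 of 10 below 0 and a median fold change of 0.04. Cyclin D genes differed among themselves. Ccnd1 had 169.7, 263 and 294 CPM across knockout replicates 1, 2 and 3, against 162, 204 and 202 CPM across the NT replicates, with replicates 2 and 3 of the knockout above every NT clone and replicate 1 within their range (0.36 ± 0.20, SE, edgeR adjusted p = 0.294). Ccnd3 had 269, 251 and 178 CPM in knockout clones and 326, 274 and 326 CPM in NT clones, with no overlap (-0.41 ± 0.16, SE, edgeR adjusted p = 0.172). Ccnd2 had 29.7, 35.00 and 46.02 CPM in knockout clones and 18.4, 40.3 and 29.3 CPM in NT clones, whose own values spread over more than the difference between groups (0.33 ± 0.29, SE). Cdk6, a kinase partner of the D cyclins, had the highest fold change of the 43 genes. It lies on chromosome 5 (3341485 to 3531008, GRCm38) and had 61.7, 98.5 and 119 CPM in knockout clones, against 59.8, 62.1 and 57.1 CPM in NT clones. Knockout replicates 2 and 3 were at 165% and 199.9% of the NT mean and replicate 1 was at 103%, inside the NT range. The log2 fold change of Cdk6 was 0.64 ± 0.22 (SE, edgeR adjusted p = 0.145) with all clones, and 0.86 with knockout replicate 1 left out, where edgeR called it. Cdk4, the other D cyclin kinase, averaged 448 ± 47.8 CPM in knockout clones and 444 ± 36.1 CPM in NT clones (SD, n = 3 each; log2 fold change 0.01 ± 0.10, SE).

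**Figure D3:**
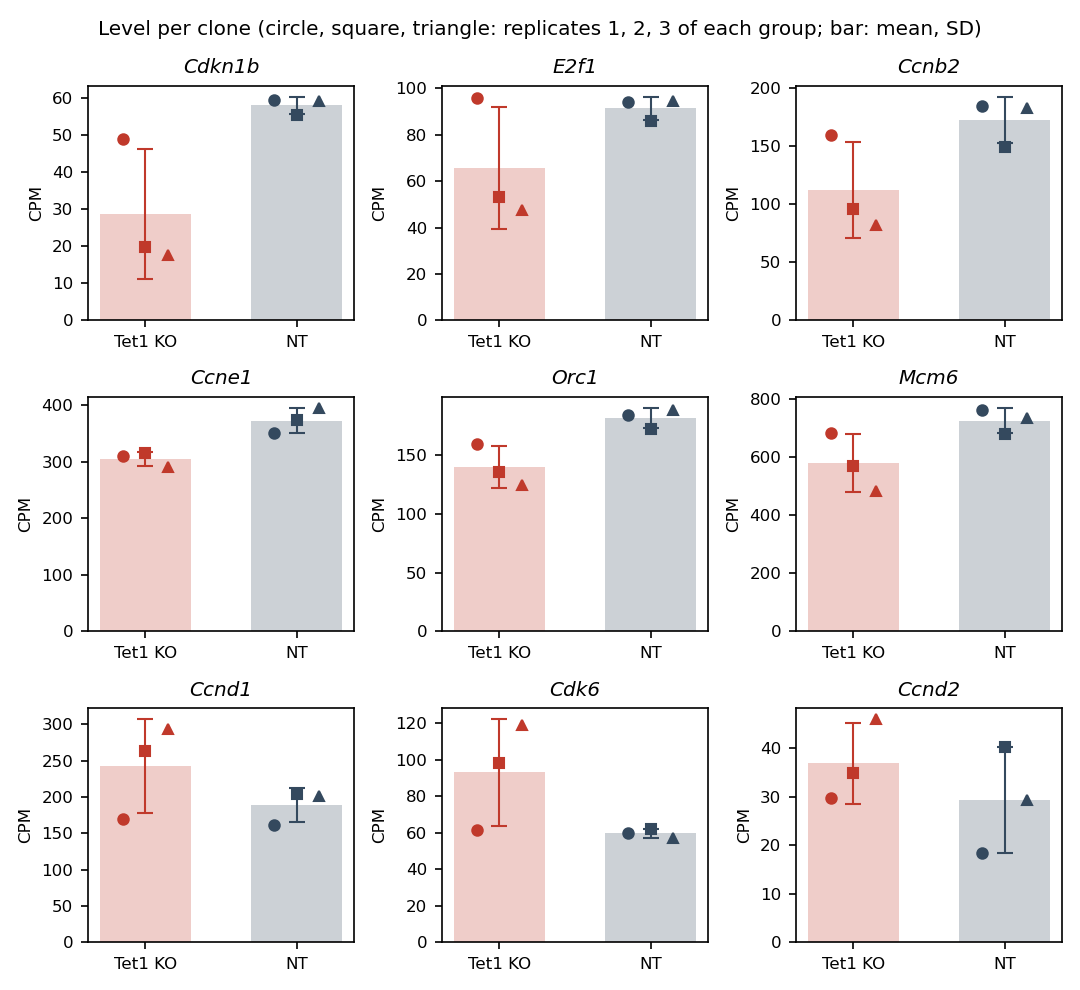
CPM of 9 members in the 3 knockout and 3 NT clones, with a bar for the mean, a line for the SD, and a circle, square and triangle for replicates 1, 2 and 3. In Cdkn1b, E2f1, Ccnb2, Ccnd1 and Cdk6 the circle of the knockout lies near the NT clones and the square and triangle lie apart from them, whereas in Ccne1 and Orc1 all 3 knockout clones lie below the NT clones.

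Cyclin E1 and its kinase, which push cells into S phase, were lower in all 3 knockout clones. Ccne1 (chromosome 7, 38097984 to 38107534, GRCm38) had 309.7, 316 and 291 CPM across knockout replicates 1, 2 and 3, against 350.3, 374 and 394 CPM across the NT replicates. All 3 knockout clones were below all NT clones, and replicate 1 was no closer to them than replicate 2. The log2 fold change was -0.29 ± 0.07 (SE, edgeR adjusted p = 0.115, DESeq2 adjusted p = 0.042), and the adjusted p ran between 0.00527 and 0.371 over the 18 alternatives. Ccne1 was called in 3 of these: DESeq2, and edgeR and DESeq2 with knockout replicate 1 left out. Its paralog Ccne2 was higher in the knockout, with 41.7, 44.8 and 37.3 CPM there and 36.4, 34.7 and 25.9 CPM in NT clones and no overlap (0.35 ± 0.15, SE, edgeR adjusted p = 0.198). Cdk2, the kinase that both cyclins bind, had 141, 124 and 131 CPM in knockout clones and 168, 152 and 165 CPM in NT clones, without overlap (-0.29 ± 0.08, SE, edgeR adjusted p = 0.123). Cyclin A2 (Ccna2), which takes over Cdk2 during S phase, had 357, 298 and 274 CPM in knockout clones and 349.7, 337 and 349 CPM in NT clones, with knockout replicate 1 above and replicates 2 and 3 below the NT range. Cdc25a, a phosphatase that activates Cdk2, averaged 212 ± 15.9 CPM in knockout clones and 202 ± 7.55 CPM in NT clones (SD, n = 3 each). With knockout replicate 1 left out, edgeR called 4 of the 10 genes lower (Ccnd3, Ccne1, Cdk2 and Ccna2) and 2 higher (Ccnd1 and Cdk6), beside 14% of all genes lower and 15.1% higher in that fit.

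The group of G1 brakes and E2F held the lowest fold change of the set, that of Cdkn1b. Cdkn1b encodes p27, an inhibitor of cyclin E and Cdk2, and lies on chromosome 6 (134920401 to 134925513, GRCm38). It had 48.99, 19.8 and 17.6 CPM across knockout replicates 1, 2 and 3, against 59.5, 55.6 and 59.4 CPM across the NT replicates. Replicates 2 and 3 stood at 34.0% and 30.3% of the NT mean and replicate 1 at 84.3%, and no knockout value reached the NT range. The log2 fold change of Cdkn1b was -1.01 ± 0.36 (SE, edgeR adjusted p = 0.158, DESeq2 adjusted p = 0.0403), and the adjusted p ran between 7.67e-30 and 0.376 over the 18 alternatives. Cdkn1b was called in 3 of these: DESeq2, and edgeR and DESeq2 with knockout replicate 1 left out. With knockout replicate 1 left out, the fold change was -1.64 and edgeR called it. E2f1, the E2F factor that activates replication genes, had 95.6, 53.3 and 47.5 CPM in knockout clones and 93.9, 85.7 and 94.3 CPM in NT clones. Replicate 1 was the highest of all 6 clones and replicates 2 and 3 were at 58.3% and 51.96% of the NT mean (-0.48 ± 0.25, SE, edgeR adjusted p = 0.264; -0.86 and called by edgeR without replicate 1). Rb1, the retinoblastoma protein gene, had 21.2, 15.6 and 14.8 CPM in knockout clones and 19.5, 18.5 and 15.5 CPM in NT clones, with replicate 1 of the knockout above and replicate 3 below the NT range, and the sign of its difference (-0.05 ± 0.18, SE) changed with the library left out.

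Cdkn1b and the cyclin D2 gene Ccnd2 lie in a stretch at the end of chromosome 6 that ran lower as a whole in knockout replicates 2 and 3. Between 108107028 and 149101680 (GRCm38), the 147 genes with a mean log2 CPM above 4 had a median deviation of -1.01 and -0.99 in these clones, against -0.03 in knockout replicate 1 and between -0.03 and 0.02 in the NT clones. Cdkn1b was at -1.55 and -1.71 in knockout replicates 2 and 3, with 9 and 8 of the 147 genes lower still. Ccnd2 (127125162 to 127152193) was at 0.32 and 0.72 in the same clones, and 2 and 3 of the 147 genes, Ccnd2 included, stood as high or higher. All 285 tested genes of the stretch, weakly expressed ones included, had medians of -0.92 and -0.92 in these clones. Of these 285, 33 and 32 were lower than Cdkn1b, and 21 and 15, Ccnd2 included, stood as high as Ccnd2 or higher. Neighbours in the same stretch also belong to the cell cycle: Ncapd2, a condensin subunit, was at -1.12 and -1.17, Cdca3, a mitotic entry factor, at -1.48 and -1.65, and Foxm1, an activator of mitotic genes, at -0.79 and -0.76 in replicates 2 and 3. Mcm2 lies on chromosome 6 outside the stretch (88883474 to 88898780) and was at -0.11 and -0.20 in these clones. Without Ccnd2 and Cdkn1b the median fold change of the remaining 41 members was -0.18, with 34 below 0. The part of the stretch in the level of either gene was not tested.

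**Figure D4:**
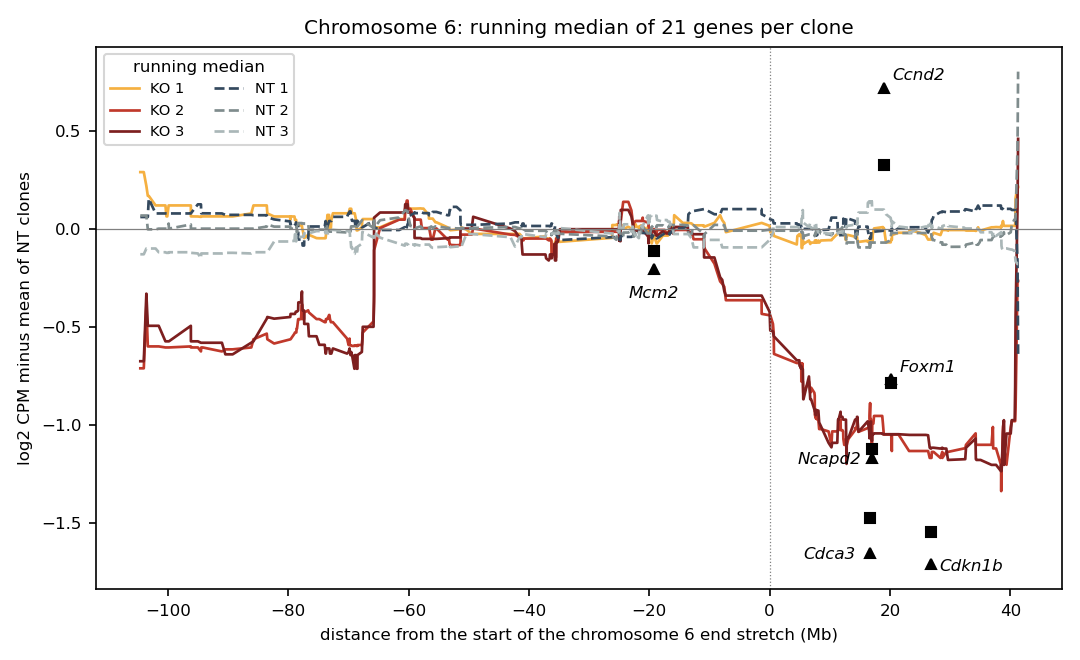
Running median over 21 genes of log2 CPM minus the NT mean along chromosome 6, against distance in Mb from the start of the end stretch, with a line for each clone; squares and triangles mark named genes in knockout replicates 2 and 3. Both replicates run near -1.0 past the start of the stretch, where Cdkn1b lies below the line and Ccnd2, at 0.32 and 0.72, lies above 0.

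All 10 genes of G2 and mitosis had a fold change below 0, with a median of -0.20, and the shift was absent from the median of knockout replicate 1. The group's median deviations were 0.05, -0.25 and -0.36 in knockout replicates 1, 2 and 3 and between -0.09 and 0.09 in the NT clones. Ccnb2, a B cyclin, lies on chromosome 9 (70407689 to 70421554, GRCm38). It had 159, 95.6 and 82.2 CPM in knockout clones, against 185, 149 and 183 CPM in NT clones. Knockout replicate 1 lay within the NT range, and replicates 2 and 3 at 55.5% and 47.7% of the NT mean (-0.62 ± 0.24, SE, edgeR adjusted p = 0.171; -0.96 and called by edgeR without replicate 1). Cdk1, the mitotic kinase, had 267, 185 and 173 CPM in knockout clones and 268, 231 and 253 CPM in NT clones (-0.27 ± 0.16, SE, edgeR adjusted p = 0.338). Ccnb1, the main B cyclin partner of Cdk1, had 249.8, 183 and 163 CPM in knockout clones and 244, 230.2 and 241 CPM in NT clones (-0.26 ± 0.15, SE). In both genes replicates 2 and 3 of the knockout were the lowest of the 6 clones. Top2a, the topoisomerase that untangles sister chromatids, had 991, 787 and 745 CPM in knockout clones and 1093, 971 and 1009 CPM in NT clones (-0.28 ± 0.11, SE, edgeR adjusted p = 0.181). Mki67, the gene of the proliferation marker Ki-67, had 638, 521 and 461 CPM in knockout clones and 612, 608 and 645 CPM in NT clones (-0.20 ± 0.12, SE). Cdc20, which activates the anaphase-promoting complex, had 286, 277 and 262 CPM in knockout clones and 289, 306 and 349.7 CPM in NT clones. It was the only 1 of the 10 genes whose 3 knockout values all lay below the NT values (10%, against 14.7% of all genes). Aurka, the centrosome kinase, had 183, 157 and 157 CPM in knockout clones and 178, 183 and 199.8 CPM in NT clones. Bub1, a kinase of the spindle checkpoint, had 266, 198 and 193 CPM in knockout clones and 258, 236 and 214 CPM in NT clones. In Mki67, Aurka and Bub1 replicates 2 and 3 of the knockout lay below the NT range, and replicate 1 of the knockout stood above it in Bub1 only. Aurkb, the centromere kinase, averaged 73.9 ± 8.94 CPM in knockout clones and 78.96 ± 3.70 CPM in NT clones, and Plk1, a kinase of mitotic entry, 199 ± 20.3 CPM in knockout clones and 206 ± 15.99 CPM in NT clones (SD, n = 3 each). With knockout replicate 1 left out, edgeR called 6 of the 10 lower (Ccnb1, Ccnb2, Cdk1, Top2a, Mki67 and Aurka), beside 14% of all genes in that fit.

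The promoters of these genes were searched for the CHR letters TTTGAA and TTCGAA on either strand. They occurred in 8 of 9 G2 and mitosis windows (88.9%), with Ccnb1 as the exception, in 2 of 6 MCM2-7 windows, 2 of 8 licensing and firing windows and 0 of 7 G1 and S windows, and in 19.2% of all windows. E2F-type letters occurred in 1 of the 9 G2 and mitosis windows, that of Cdk1, which holds both kinds, as do 0.317% of all windows. The upstream part is shown for Cdk1, Top2a and Ccnb2, as the kinase, the gene with the most matches and the gene with the lowest fold change of the group, at chr10:69352913-69353162, chr11:99024190-99024439 and chr9:70421555-70421804 (all on the minus strand). Capitals mark CHR letters, and in Cdk1 also the E2F-type letters TTTCGCGC.
Cdk1: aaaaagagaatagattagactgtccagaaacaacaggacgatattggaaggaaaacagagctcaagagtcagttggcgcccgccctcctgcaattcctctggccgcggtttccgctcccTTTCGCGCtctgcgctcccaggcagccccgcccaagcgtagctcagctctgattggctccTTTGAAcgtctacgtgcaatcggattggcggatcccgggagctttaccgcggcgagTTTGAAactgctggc
Top2a: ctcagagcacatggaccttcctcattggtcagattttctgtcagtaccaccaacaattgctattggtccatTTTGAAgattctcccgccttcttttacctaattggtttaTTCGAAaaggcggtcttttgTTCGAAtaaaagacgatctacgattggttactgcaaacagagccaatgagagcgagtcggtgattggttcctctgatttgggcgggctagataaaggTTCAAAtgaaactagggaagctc
Ccnb2: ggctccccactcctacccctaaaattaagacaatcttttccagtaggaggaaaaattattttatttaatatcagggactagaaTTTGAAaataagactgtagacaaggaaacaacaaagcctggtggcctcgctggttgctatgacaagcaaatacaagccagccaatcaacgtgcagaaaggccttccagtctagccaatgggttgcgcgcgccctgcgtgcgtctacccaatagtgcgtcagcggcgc
The CHR letters of Cdk1 begin 71 and 15 bases upstream of the start, after the E2F-type letters at 131 bases, and Top2a has 4 matches between 179 and 23 bases upstream. No overlap occurred between the CHR and E2F-type matches of Cdk1. The searched windows of Cdkn1b and E2f1 held neither kind of letters. That of E2f1 (chr2:154569377-154569676, minus strand) lies inside the gene model used for counting (154559407 to 154569892). Bases upstream of that model and other letters were not searched.

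Further genes of the same pathways, listed by function, were read from the same fit. edgeR called 0 of them; at an unadjusted p under 0.05 14 of 45 replication factors were lower and 0 higher, and 13 of 44 mitosis genes were lower and 1 higher, against 10.8% of all genes lower and 14% higher. The other lists had few such genes: 3 lower and 2 higher among 15 transcription factors, 3 lower and 1 higher among 9 nucleotide genes, 0 lower and 2 higher among 8 G1 inhibitors, and 0 of 14 CDK regulators. DESeq2 called 10 lower and 0 higher (background 3.35% and 5.77%), and between 0 and 5 when a library other than knockout replicate 1 was left out. With knockout replicate 1 left out edgeR called 54 lower and 8 higher, beside 14% of all genes lower and 15.1% higher in that fit. Of 45 replication factors outside the 44 genes, 36 had a fold change below 0 (median -0.15), and DESeq2 called 6 lower, against a background of 3.35%. These were Rnaseh2a (a subunit of the enzyme that removes RNA from DNA), Chtf18 (a clamp loader subunit), Chaf1b (a subunit of the histone chaperone behind the fork), Prim1 (the primase), Lig1 (the ligase that joins Okazaki fragments) and Timeless (a fork protection factor). Rnaseh2a had 76.1, 60.6 and 56.4 CPM in knockout clones, against 93.9, 94.1 and 99.04 CPM in NT clones (-0.57 ± 0.12, SE, edgeR adjusted p = 0.107). Chtf18 had 69.8, 79.5 and 61.5 CPM in knockout clones and 98.9, 95.6 and 104 CPM in NT clones, and Chaf1b had 134, 123 and 118 CPM in knockout clones and 153, 159 and 164 CPM in NT clones. In all 3 genes every knockout clone, replicate 1 included, was below every NT clone. Without replicate 1, edgeR called 21 of the 45 lower and 1 higher (14% and 15.1% of all genes). Among those lower was Rpa3, at -0.91 and -0.99 in knockout replicates 2 and 3. It lies in a stretch at the start of chromosome 6 that ran lower in these clones (medians -0.56 and -0.45). The part of that stretch in its level was not tested.

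Of 44 further genes of mitosis and condensin, 39 had a fold change below 0 (median -0.21), and DESeq2 called 3 lower: Fzr1, an activator of the anaphase-promoting complex, Dlgap5, a spindle protein, and Cdca3 from the chromosome 6 stretch, against 3.35% of all genes lower. Fzr1 had 107, 80.9 and 84.6 CPM in knockout clones and 128, 119 and 148 CPM in NT clones (-0.53 ± 0.13, SE, edgeR adjusted p = 0.114). The genes with the next smallest edgeR p were Birc5 (survivin) at -0.31 ± 0.08 and Dlgap5 at -0.36 ± 0.10 (SE). Cdca2, a mitotic phosphatase subunit, lies in a stretch of chromosome 14 that ran lower in knockout replicate 2 alone (median -0.99). It had 119, 44.3 and 70.5 CPM across knockout replicates 1, 2 and 3, against 126, 114 and 136 CPM across the NT replicates, so that replicate 3, without that shift, was below the NT range too, at 56.2% of the NT mean. Without knockout replicate 1, edgeR called 26 of the 44 lower and 2 higher (14% and 15.1% of all genes). Those lower include Ncapd2, Cdca3 and Cdca2 from the shifted stretches.

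Of 15 further E2F, DREAM and late transcription factor genes, 7 had a fold change below 0 (median 0.01). E2f8, an E2F that represses replication genes, had 116, 119 and 108 CPM in knockout clones and 157, 151 and 170.1 CPM in NT clones, and DESeq2 called it lower (-0.48 ± 0.08, SE, edgeR adjusted p = 0.106). All 3 knockout values lay below all NT values. Lin54, the DREAM subunit that recognises CHR letters, was at 0.34 ± 0.12 and Tfdp2, an E2F partner, at -0.27 ± 0.10 (SE). Of 9 tested nucleotide synthesis genes, 6 were below 0, and thymidine kinase Tk1 had 49.8, 52.04 and 47.1 CPM in knockout clones and 64.2, 57.5 and 69.2 CPM in NT clones (-0.36 ± 0.10, SE). Dctpp1, a nucleotide hydrolase, was at -0.31 ± 0.09 and Samhd1, which breaks down deoxyribonucleotides, at 0.38 ± 0.12 (SE). Of 14 CDK regulators, 7 were below 0 and DESeq2 called 0. The smallest p among them belonged to Cdk7 (-0.17 ± 0.07, SE), Btrc (0.24 ± 0.10, SE) and Ccnf (-0.28 ± 0.14, SE).

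Most of the other G1 inhibitors stood on the opposite side of 0 from Cdkn1b, several with few reads or in a single knockout clone. Of 8 tested inhibitor and pocket protein genes, 6 had a fold change above 0, with a median of 0.45, and neither edgeR nor DESeq2 called any. The list's median deviation was -0.07, 0.35 and 0.37 in knockout replicates 1, 2 and 3. In the NT clones it ran between -0.22 and 0.09. Cdkn2a and Cdkn2b had 279 and 159 reads in all libraries together. Cdkn1c had 10.7, 32.7 and 10.6 CPM in knockout clones and 6.62, 18.7 and 11.3 CPM in NT clones. Rbl2, a pocket protein gene, was at 0.06 ± 0.23 (SE). Cdkn1a, which encodes p21, an inhibitor related to p27, had 45.8, 96.1 and 114 CPM across knockout replicates 1, 2 and 3, against 41.96, 56.4 and 50.2 CPM across the NT replicates. Replicates 2 and 3 of the knockout lay above every NT clone and replicate 1 lay within their range (0.78 ± 0.31, SE, edgeR adjusted p = 0.175; 1.08 and called by edgeR without replicate 1). Cdkn2c, an inhibitor of Cdk4 and Cdk6, had 1.61, 1.57 and 2.30 CPM in knockout clones and 1.05, 0.998 and 0.973 CPM in NT clones, from 115 reads in all libraries together. Cdkn2d, another inhibitor of these kinases, was at -0.36 ± 0.19 (SE).

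**Figure D5:**
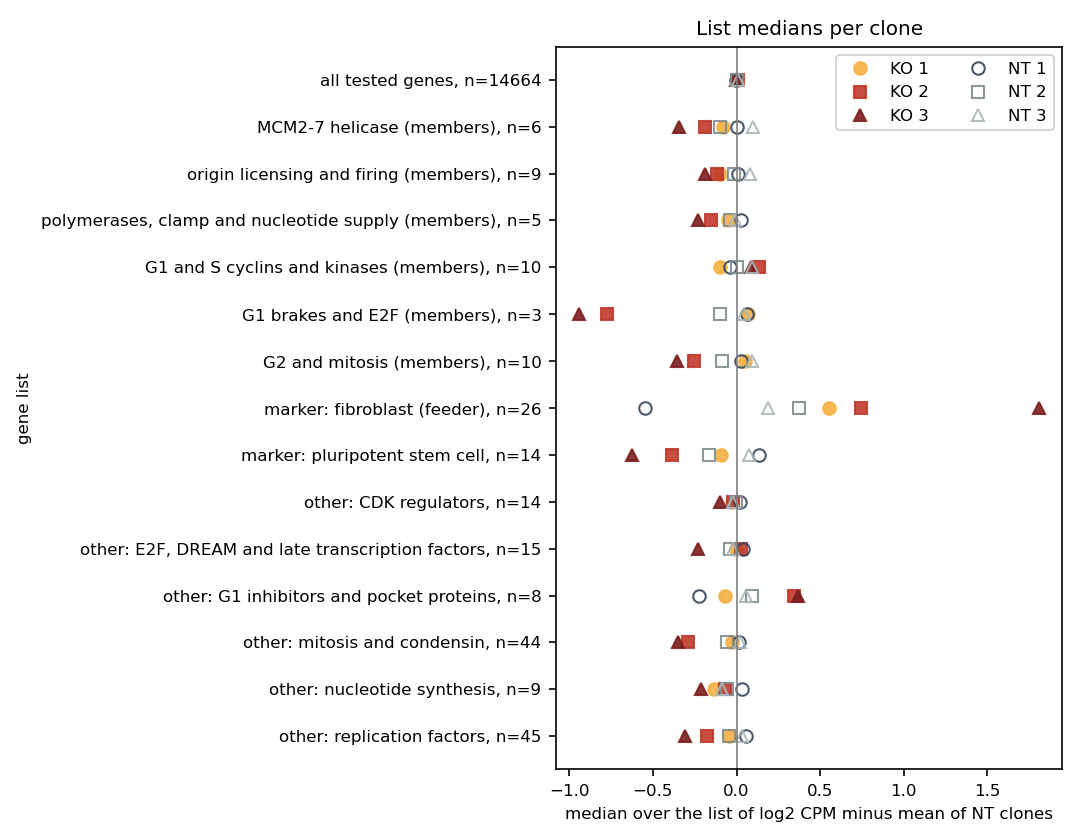
Median over each gene list of log2 CPM minus the NT mean, with 1 filled point per knockout clone and 1 open point per NT clone. The helicase, G2 and mitosis, further mitosis and replication lists lie to the left of the NT clones in knockout replicates 2 and 3, the fibroblast markers lie to the right, and the median of all tested genes lies near 0 in every clone.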

How the data were processed

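The authors deposited whole-number read counts per gene for all 6 libraries in a single table. DESeq2 1.18.1, featureCounts 1.5.3, HISAT2 2.1.0 and the mm10 build are listed per the submitters' processing notes. Per the file headers the counting used featureCounts 1.6.2, a reverse-stranded setting and GENCODE M15 gene models (GRCm38.p5) with introns included, and no option to count reads that map to several places or overlap several genes. Genes within a longer same-strand model therefore lose their reads, and levels include intronic reads.

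From the deposited counts, genes were kept with filterByExpr (minimum count 10, minimum total 15), which left 14664 of the 25600 genes with a count. Knockout clones were tested against NT clones in edgeR (quasi-likelihood, no covariate), p-values were adjusted by Benjamini-Hochberg over all tested genes, and the threshold was 0.05. SEs were derived from the F statistics. Clone deviations used log2 CPM with a prior count of 2. Alternatives were DESeq2, limma voom, RLE factors, library totals, no filter, a replicate block and each library left out. In simulated data of 14664 genes, edgeR recovered 56% of 100 genes changed 2-fold and 92% of 100 changed 4-fold. DESeq2 recovered 69% and 97%. edgeR also called 11 and DESeq2 40 unchanged genes. There each changed gene had the same fold in all knockout clones, and genes were drawn independently. The real knockout clones differed from each other over many genes, so these shares do not carry over to the real comparison. Shifted stretches are runs of at least 20 genes beyond 0.35 in a running median of 21 genes. Software was DESeq2 1.42.0, edgeR 4.0.16 and limma 3.58.1 under R 4.3.3.

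The members, gene lists and tests were chosen with earlier results of these data known. All 44 members are named. From each further list the 3 genes with the smallest edgeR p and the genes called by DESeq2 are named. Foxm1, Ncapd2, Cdca2 and Rpa3 were named for their position, and Cdkn1c, Cdkn2a, Cdkn2b and Rbl2 for the limits of their list. Pou5f1, Nanog, Col1a1 and Col1a2 stand for the marker lists. Klf4, Tfcp2l1, Esrrb, Fgf4, Lin28a, Klf2, Utf1, Fn1 and Sparc were named after their values were seen. Promoter sequences are RefSeq's. All 6 labels give the same sequencing batch.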

Additional observations from a re-analysis of the deposited data

How the results depend on the processing

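The number of members called was 0 with edgeR, limma voom, RLE factors, library totals, no filter and the replicate block, 3 with DESeq2, and between 0 and 24 with a library left out in edgeR or DESeq2, where only leaving out knockout replicate 1 gave any. Over all genes the count was 0 with edgeR, 1247 with DESeq2, 1 with limma voom, 159 with no filter and between 0 and 4404 with a library left out. In the further lists it was 0 with edgeR, 10 with DESeq2, 1 with no filter and between 0 and 65 with a library left out. The members' median fold change of -0.18 stayed between -0.24 and -0.11 with a library left out. The 13 lower and 2 higher members without overlap became 12 and 3 with library totals. That scaling moved the median of all genes to 0.03 and gave Gins3 0.0078, and no filter gave Cdk4 -0.0011. With a library left out, the log2 fold change ran between -0.12 and 0.038 for Mcm10, -0.19 and 0.081 for Gins3, -0.050 and 0.091 for Cdk4, -0.13 and 0.028 for Plk1, and -0.24 and 0.045 for Rb1. The cause of these changes was not tested. The labels number the replicates 1 to 3 in each group, but same-numbered clones deviated together at correlations of 0.46, 0.11 and -0.02, so the numbers were not taken as pairs; not every clone correlated best with its own number, and knockout replicate 3 with NT replicate 2 gave 0.46. With the replicate block edgeR called 3 genes in all and 0 members, and the members' median was -0.18. Changes smaller than 2-fold, the size of nearly all members' differences, were not among those simulated.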
